A study of Mus musculus with 5 samples.

Results

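The genes described here are 9 interferon-inducible genes of cytosolic RNA sensing: the oligoadenylate synthetases Oas1a, Oas1g, Oas2 and Oas3, the synthetase-like genes Oasl1 and Oasl2, the RNA helicase sensors Ddx58 (RIG-I) and Ifih1 (MDA5), and the kinase gene Eif2ak2 (PKR). They were taken by symbol from the 19726 gene symbols listed for each library, and all 9 were found. The libraries were made from total RNA of 300000 cells labelled CD4+ T cells, isolated from the spleen or from tumors of MC38, a transplantable colon carcinoma line of the mouse. All mice were wild-type C57/Bl6j and 7 weeks old. There were 3 spleen libraries (replicates 1, 2 and 3) and 2 tumor libraries (replicates 2 and 3), and no treatment or engineered allele is given for either group. The comparison addresses what the surroundings of a tumor do to gene expression and splicing in such cells.

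Cells of vertebrates use these proteins to recognise viral or misplaced double-stranded RNA. The synthetases, once bound to such RNA, make short oligoadenylates that act as antiviral second messengers. RIG-I and MDA5 signal through the mitochondrial protein MAVS to induce interferon, and PKR phosphorylates the translation factor eIF2 alpha and so slows protein synthesis. Interferons in turn raise the transcription of all of these genes through the factor ISGF3, which contains STAT2 and IRF9 and binds the interferon-stimulated response element in promoters.

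Sequences near the start sites are shown first because ISGF3 acts through promoter elements of this kind. RefSeq promoter windows (GRCm38.p6, 250 bases before to 50 after the start) were matched for 8 of the 9 genes, the other being Oas2. The element's core was searched as GAAANNGAAA and the shorter factor core as AANNGAAA, on both strands; the shorter motif lies within the longer one. The longer motif was in the windows of 6 of the 8 genes, against 3.44% of all 32851 windows, and the shorter one in 7 of the 8, against 23.9%. Matches are descriptions of letters and not measured binding sites. Each line gives 30 bases in the gene's orientation, with the match in capitals, and GAAANNGAAA is the match except for Oasl1, where it is AANNGAAA. In Ddx58 the match is on the opposite strand.
Oas1a: tcggGAAATGGAAACTGAAAatctacttcc
Oas1g: tcggGAAATGGAAACTGAAAatctacttcc
Oas3: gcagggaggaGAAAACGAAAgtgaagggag
Oasl1: caaatgttgagAATCGAAActtaacagcac
Ddx58: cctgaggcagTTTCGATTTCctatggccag
Ifih1: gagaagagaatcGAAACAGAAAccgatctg
Eif2ak2: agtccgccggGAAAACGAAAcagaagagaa
The stretches are at chr5:120907520-120907549 for Oas1a, chr5:120887606-120887635 for Oas1g and chr5:120777715-120777744 for Oas3. They are at chr5:114923096-114923125 for Oasl1, chr4:40239804-40239833 for Ddx58, chr2:62646206-62646235 for Ifih1 and chr17:78882535-78882564 for Eif2ak2. Oasl1 is on the plus strand and the other 6 on the minus strand. Relative to the start, the capitals nearest to it begin at base -14 in Oas1a, -12 in Oas1g, -75 in Oas3 and -133 in Oasl1, and at 3 in Ddx58, 33 in Ifih1 and 19 in Eif2ak2. Oas1a and Oas1g hold a pair of overlapping matches in 1 identical stretch. Neither motif was found in the Oasl2 window.

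The pair Oas1a and Oas1g is alike well beyond that element. When the 250 bases before each start were aligned, 244 bases lined up and 86.9% of them were identical. A shorter stretch nearest the start was also compared without gaps. Over its 98 bases the 2 genes differ at 7 (92.9% identical), shown as capitals and mostly at the far end. The stretches end at base -3 in Oas1a and -1 in Oas1g.
Oas1a: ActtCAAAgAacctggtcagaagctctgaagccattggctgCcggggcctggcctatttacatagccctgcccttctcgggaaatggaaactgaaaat
Oas1g: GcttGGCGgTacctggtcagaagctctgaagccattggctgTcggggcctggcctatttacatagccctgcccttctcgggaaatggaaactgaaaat
They stand at chr5:120907528-120907625 and chr5:120887614-120887711, minus strand. The likeness extends to the transcripts: 68.7% of the 31-base words in annotated Oas1a transcripts also occur in Oas1g transcripts, and 54.6% of those of Oas1g occur in Oas1a. How the signal was divided between these 2 genes is therefore uncertain. In each of the other 7 genes, at most 8.16% of such words occurred in any other gene.

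Values are TPM, a relative abundance corrected for transcript length, and depth is unknown. The listed genes made up 26.9% to 36.0% of the TPM total in spleen and 56.9% to 59.6% in tumor libraries. The 95th percentile of 1134 olfactory receptor genes, a background level, lay between 10.6 and 16.2 TPM in the spleen libraries and between 7.59 and 10.7 TPM in the tumor libraries. Against the label, macrophage markers were high in tumor: all 16 of a macrophage and monocyte list were higher, their sum lying between 34.0 and 44.6 TPM in spleen and between 7233 and 7719 TPM in tumor, with none at 0. The summed level of 12 T cell identity genes lay between 996 and 1318 TPM in spleen and between 249 and 318 TPM in tumor, and all 12 were lower. Of 7 tested dendritic cell markers 3 were higher (Itgax, Bst2 and Xcr1, of which Bst2 is itself interferon-inducible). Ccr7 was lower (-1.37 on the log2 scale, limma adjusted p = 2.1e-07) and 3 were not called. The list summed to 62.2 to 74.5 TPM and 431 to 472 TPM, spleen given first. Ccr7, with a mean of 41.2 TPM, held most of the spleen sum. Bst2 (mean 311 TPM) and Itgax (mean 112 TPM) held most of the tumor sum. Xcr1 lay below the olfactory level in each library. Neutrophil markers summed to 16.2 to 21.7 TPM and 79.4 to 80.7 TPM, mostly from Cxcr2 in spleen and from Csf3r in tumor. Of the 5 tested, 3 were called higher (Csf3r, Mmp8 and S100a9), 1 lower (Cxcr2) and 1 neither (S100a8). Cxcr2 fell from a mean of 15.5 to 9.19 TPM (limma adjusted p = 0.0042). Mmp8 rose from a mean of 0.26 to 10.3 TPM (log2 change 3.14) and S100a9 from 0.33 to 2.73 TPM (1.48). S100a9 lay below the olfactory level in each library, and Mmp8 in all but tumor replicate 2. Ly6g and Retnlg stayed below 1 TPM and were not tested. The sums of B cell markers were 6.91 to 8.15 TPM and 7.18 to 8.23 TPM, those of NK and CD8 T cell markers 18.7 to 21.9 TPM and 10.9 to 11.2 TPM, and those of tumor epithelium and stroma markers 63.5 to 74.1 TPM and 60.1 to 68.9 TPM, spleen given first. Most of the epithelium and stroma sum was Pecam1, at 56.1 to 68.9 TPM in spleen and 54.8 and 63.2 TPM in tumor. The epithelial genes Epcam, Krt8, Krt18, Krt20 and Cdh1 had at most 1.47 TPM in any library. In bulk samples, fewer cells of a type and less RNA per cell cannot be told apart. In limma's test on log2(TPM + 1), 5309 of 12979 tested genes were higher and 2347 lower in tumor at a Benjamini-Hochberg adjusted p below 0.05. Rises were 69.3% of calls, but the share was 63.8% under scaling by median ratios, 36.8% by the upper quartile, 28.4% by equal totals, 25.9% by totals without the top 20 genes and 99.1% by T cell identity genes. Separate mice are not stated for the replicates, and the p-values therefore cover only the spread between these libraries, which may be technical. With 3 residual and 44.1 prior degrees of freedom, that spread was estimated mostly over all genes. Each SE and p-value thus reflects little of the gene's own spread.

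All 9 genes were higher in tumor than in spleen, and for all 9 both tumor libraries lay above every spleen library. Of all tested genes 40.9% were called higher, and 46.6% had every tumor library above every spleen library. The changes were large beside those of other genes: 8 of the 9 had a log2 change of at least 2, against 11.5% of tested genes, and 6 of at least 4, against 3.29%. The median log2 change of the 9 was 4.24, and that of all tested genes was 0.23. Their summed level was 114 to 148 TPM in the spleen and 1819 to 1823 TPM in the tumor libraries. The macrophage marker sum moved with this rise, and its part in it was not tested.

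**Figure D1:**
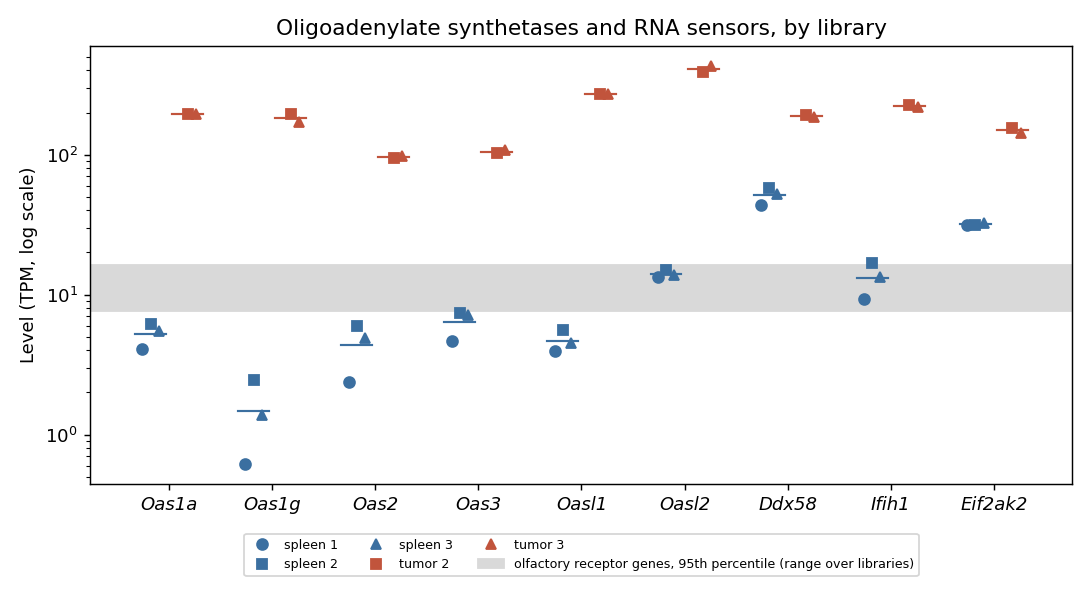
Level of each gene in each library (TPM, log axis). Blue marks spleen and red tumor libraries, shapes give the replicate number, short lines are group means and the grey band is the range over libraries of the 95th percentile of olfactory receptor genes. In every gene both tumor libraries lie above the 3 spleen libraries, and in tumor all 9 genes lie above the band.

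The synthetase genes lie together on chromosome 5 (GRCm38) and were near background in spleen. Oas1a (120896256 to 120907521), which encodes a synthetase of the small form, stood at 4.09, 6.17 and 5.48 TPM in spleen replicates 1, 2 and 3 and at 196 and 197 TPM in tumor replicates 2 and 3. In the deposited values the tumor libraries differed from each other by 0.34%, far less than the spleen libraries did. This closeness depended on scaling: with equal totals the tumor values were 130 and 136. The coefficient of variation over spleen libraries was 20.2% as deposited and 10.4% with equal totals. The log2 change of the deposited values was 4.99 ± 0.21 (SE, limma adjusted p = 4.3e-26).

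Oas1g (120876142 to 120887613), its near copy, was at 0.62, 2.44 and 1.39 TPM in spleen and at 195 and 171 TPM in tumor. It was the lowest of the 9 in each spleen library and had the largest log2 change, 6.27 ± 0.23 (limma adjusted p = 1.3e-28). Oas1g stood at 0.15, 0.39 and 0.25 of the Oas1a level in spleen and at 0.99 and 0.87 of it in tumor, a ratio that no scaling of the libraries alters. Because the pair shares most of its sequence, the 7 listed genes of the Oas1 family were also summed. The sum was 10.9, 15.0 and 12.1 TPM in spleen and 407 and 379 TPM in tumor, and the log2 change 4.86 ± 0.21 (limma adjusted p = 9.9e-26).

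Of the 5 other listed Oas1 genes, Oas1h and Oas1c passed the filter on low values and were called higher. Oas1h was at 0.30, 0.22 and 0.48 TPM in spleen and 5.87 and 3.93 TPM in tumor, below the olfactory level in each library. Oas1c was at 4.92, 5.77 and 4.11 TPM in spleen and 9.91 and 6.96 TPM in tumor, and its call was lost on the upper quartile, without spleen replicate 3 (log2 change 0.56, limma adjusted p = 0.073) and without tumor replicate 2 (0.43, adjusted p = 0.22), and its direction turned with equal totals (-0.14) and without the top 20 genes in the totals (-0.21). Oas1d, Oas1e and Oas1f had at most 0.49 TPM in any library and were not tested. The family thus held a pair of abundant genes in tumor and several at or near background.

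Oas2 (120730333 to 120749853) and Oas3 (120753098 to 120777661) encode the larger synthetases, built from repeated synthetase units. Oas2 was at 2.36, 5.93 and 4.90 TPM in spleen and 95.3 and 97.7 TPM in tumor (log2 change 4.24 ± 0.23, limma adjusted p = 8.8e-22). Oas3 was at 4.67, 7.45 and 7.15 TPM in spleen and 102 and 107 TPM in tumor (3.86 ± 0.21, limma adjusted p = 2.2e-21). These 2 genes were the least abundant of the 9 in both tumor libraries. The 4 Oas genes and Oasl1 lay below the olfactory level in all 3 spleen libraries, so their fold changes rest on spleen values within background.

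The synthetase-like genes form a pair elsewhere on chromosome 5. Oasl1 (114923240 to 114937915) encodes a protein without synthetase activity that is known to limit translation of the interferon regulatory factor IRF7. It was at 3.97, 5.55 and 4.49 TPM in spleen and at 272 and 269 TPM in tumor (log2 change 5.59 ± 0.21, limma adjusted p = 3.0e-28). Oasl2 (114896936 to 114912234), which encodes an active synthetase, was at 13.4, 14.9 and 13.8 TPM in spleen and at 391 and 431 TPM in tumor (4.78 ± 0.21, limma adjusted p = 1.0e-25). In spleen replicate 1 Oasl2 lay below the olfactory level. Oasl2 was the most abundant of the 9 in both tumor libraries, and Oasl1 came next. Oasl1 stood at 0.30 to 0.37 of the Oasl2 level in spleen and at 0.70 and 0.62 of it in tumor.

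The helicase sensors differed from each other. Ifih1 (chromosome 2, 62595798 to 62646255), whose product MDA5 recognises long double-stranded RNA, was at 9.25, 17.0 and 13.3 TPM in spleen and at 227 and 217 TPM in tumor (log2 change 4.01 ± 0.22, limma adjusted p = 1.2e-21). Ddx58 (chromosome 4, 40203773 to 40239828), whose product RIG-I recognises RNA ends with a triphosphate, was at 43.5, 57.3 and 52.4 TPM in spleen and at 191 and 185 TPM in tumor (1.87 ± 0.21, limma adjusted p = 5.9e-11). Ddx58 was the most abundant of the 9 in each spleen library and had the smallest change, and its level lay above the olfactory level in all 5 libraries. Ifih1 lay below that level in spleen replicates 1 and 3. The ratio of Ifih1 to Ddx58 was 0.21, 0.30 and 0.25 in spleen and 1.19 and 1.18 in tumor, so the order of the 2 sensors was opposite in the tissues.

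Eif2ak2 (chromosome 17, 78852564 to 78882573), the PKR gene, was at 31.7, 31.3 and 32.4 TPM in spleen and at 154 and 144 TPM in tumor (log2 change 2.19 ± 0.20, limma adjusted p = 3.2e-13). Its spleen libraries differed least of the 9 genes, with a coefficient of variation of 1.63%. In the annotation, 174 of its 5113 exonic bases lie opposite exons of the unlisted gene Gm26637. The sources used here do not say whether the counting used strand, although the library kit was a stranded one.

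The 9 genes were more alike in tumor than in spleen. Group means ran from 1.48 to 51.1 TPM in spleen, a 34.5-fold range, and from 96.5 to 411 TPM in tumor, a 4.26-fold range. The low end in spleen was Oas1g, whose split from Oas1a is uncertain. In all spleen libraries 5 of the 9 lay below the olfactory level, so the range there rests partly on values within background. Ddx58 and Eif2ak2, the 2 with the highest spleen levels, had 95% intervals of the log2 change of 1.45 to 2.28 and 1.78 to 2.60. The intervals of the other 7 began at 3.43 or above. The effect of the added 1 TPM works against the genes with low spleen values, so the ratio of means is also given: 123 for Oas1g, 58.0 for Oasl1, 37.4 for Oas1a, 29.3 for Oasl2, 21.9 for Oas2, 16.9 for Ifih1, 16.3 for Oas3, 4.69 for Eif2ak2 and 3.68 for Ddx58.

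**Figure D2:**
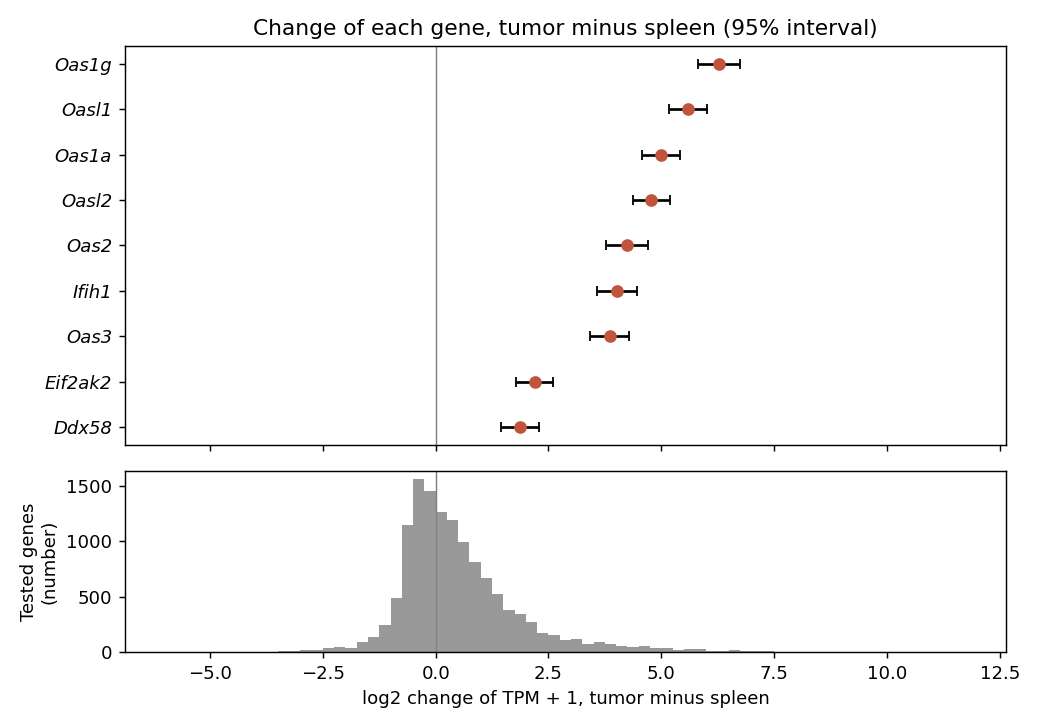
Upper panel, log2 change of TPM + 1 (tumor minus spleen) of each gene with its 95% interval from limma. Lower panel, number of tested genes by the same change on the same axis, for all 12979. Ddx58 at 1.87 and Eif2ak2 at 2.19 stand apart from the other 7 genes, which run from 3.86 to 6.27.

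The order of the levels was different in the tissues. In spleen it ran Ddx58, Eif2ak2, Oasl2, Ifih1, Oas3, Oas1a, Oasl1, Oas2 and Oas1g. The ranges of neighbours in that order overlapped for Oasl2 and Ifih1 and for each neighbouring pair from Oas3 down to Oas1g, and did not overlap for the others. In tumor it ran Oasl2, Oasl1, Ifih1, Oas1a, Ddx58, Oas1g, Eif2ak2, Oas3 and Oas2, and the ranges of neighbours overlapped for Ddx58 and Oas1g only, with 2 libraries behind each range.

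Expressed as shares of the summed TPM of the 9 genes, which do not depend on library scaling, Ddx58 made up 38.3% to 38.7% in the spleen libraries and 10.5% and 10.2% in tumor. Eif2ak2 made up 27.9%, 21.2% and 23.9% in spleen and 8.46% and 7.90% in tumor. The 6 Oas and Oasl genes together made up 25.6%, 28.7% and 27.5% in spleen and 68.6% and 70.0% in tumor. The ratio of their sum to that of Ddx58, Ifih1 and Eif2ak2 was 0.34, 0.40 and 0.38 in spleen and 2.19 and 2.33 in tumor. The groups did not overlap in this or in the 5 other ratios computed. The exact permutation test on the log2 ratios took the two-sided p as 2 times the smaller one-sided p. It gave a p of 0.2 for each of the 6, and 0.2 after adjustment over them. Defined this way, 0.2 is the smallest p that 3 against 2 libraries allow.

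**Figure D3:**
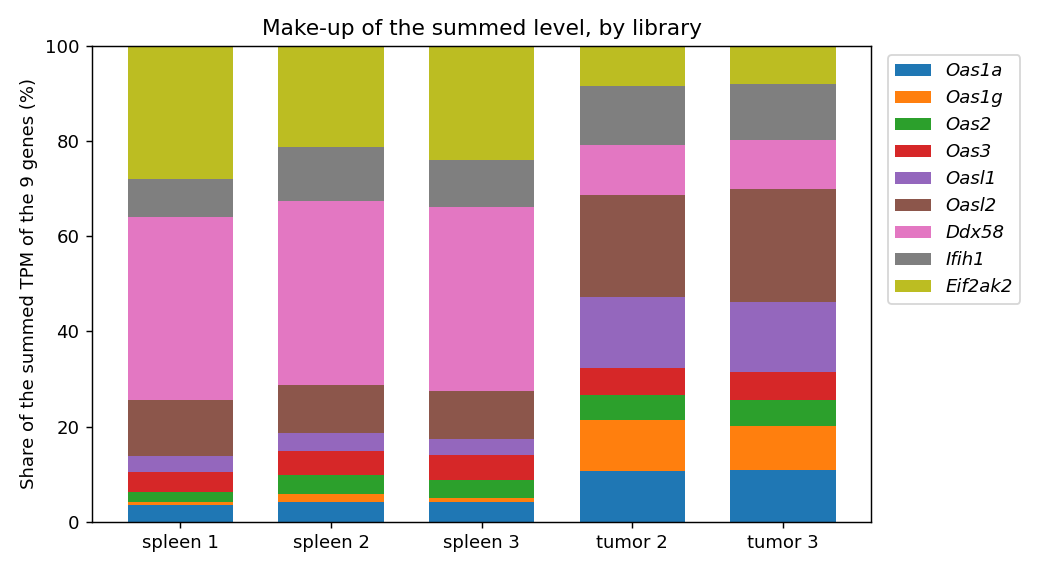
Share of the summed TPM of the 9 genes taken by each gene, in percent, with 1 stacked bar per library. Ddx58 and Eif2ak2 take 59.9% to 66.2% in the spleen libraries and 18.1% to 18.9% in the tumor libraries, where the Oas and Oasl genes take most of the sum.

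Within spleen, the deposited values of most of the 9 genes put the libraries in the same order. Spleen replicate 1 was the lowest in 8 of the 9 genes and replicate 2 the highest in 8, Eif2ak2 being the exception in both. The listed totals had the same order, with 26.9% of the TPM total in replicate 1, 29.2% in replicate 3 and 36.0% in replicate 2. How many of all tested genes had this order was not counted. With equal totals the order was not kept. Replicate 2 was then the highest in Oas1g, Oasl1 and Ifih1 but the lowest in Oasl2, Ddx58 and Eif2ak2. With equal totals the coefficient of variation over spleen libraries was smaller in 7 of the 9, falling from 17.3% to 2.49% in Oasl1 and from 61.6% to 48.7% in Oas1g. It was larger in Oasl2 (5.46% and 9.34%) and in Eif2ak2 (1.63% and 15.2%). The groups did not overlap with equal totals in any of the 9. The share of all tested genes without overlap at equal totals was not counted.

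Scaling set the size of the changes but not their direction. Each of the 9 was called higher under each of the 5 other scalings, with limma adjusted p of at most 0.00018. By median ratios 37.3% of all tested genes were called higher, and by the upper quartile 25.7%. The share was 20.4% by equal totals and 19.8% without the top 20 genes. Scaled on T cell identity genes, 12884 of 13558 tested genes were called higher, so a call there does not set a gene apart. Among the 9, the smallest changes came without the top 20 genes in the totals, where Ddx58 was at 0.86, Eif2ak2 at 1.19 and Oas1g at 5.44. That scaling moved the median of all tested genes from 0.23 to -0.62. Scaled on T cell identity genes, Ddx58 was at 3.97 and Oas1g at 7.98, and the median of all tested genes was 2.00.

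**Figure D4:**
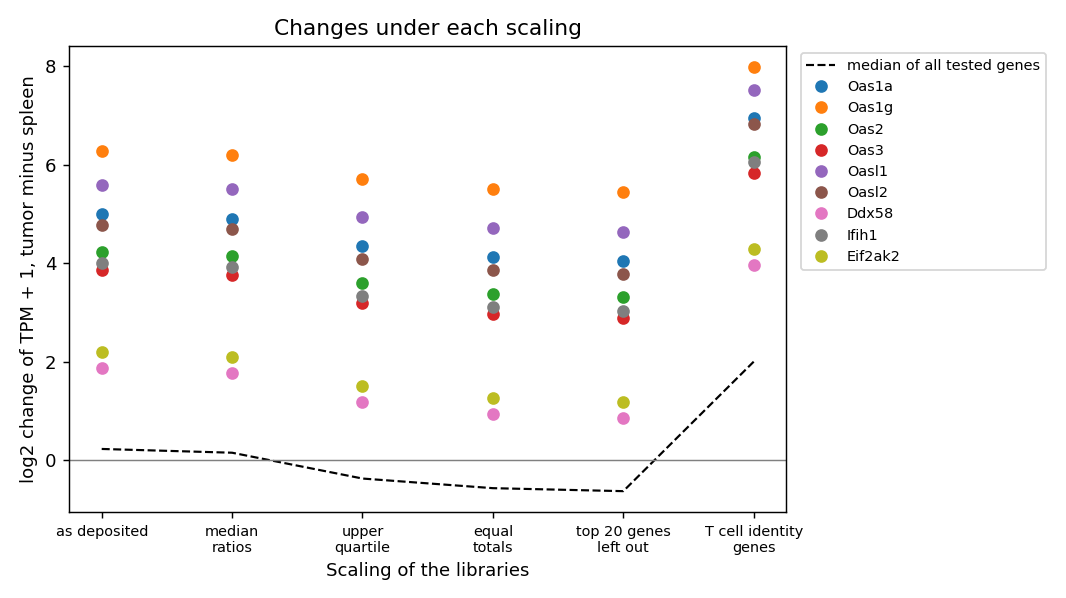
Log2 change of TPM + 1 (tumor minus spleen) of each of the 9 genes under the deposited values and 5 other scalings of the libraries, with the median of all tested genes as a dashed line. All 9 genes stay above 0 and above the median in each scaling, from 0.86 for Ddx58 with the top 20 genes left out to 7.98 for Oas1g scaled on T cell identity genes.

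Genes that act with these sensors were examined in 4 lists with 42 genes in all. Of the 38 tested, 26 were called higher, 1 lower and 11 neither, with a median log2 change of 0.85. Over all tested genes 40.9% were higher and 18.1% lower, with a median of 0.23. Scaling by equal totals gave 15 higher and 9 lower in the lists, against 20.4% and 51.4% of all tested genes. The upper quartile gave 16 and 8, against 25.7% and 44.2%, and totals without the top 20 genes gave 15 and 14, against 19.8% and 56.9%. The macrophage marker sum of 7233 to 7719 TPM was in the same tumor libraries, and its part in these counts was not tested.

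Of the 2 genes examined from the oligoadenylate pathway, 1 rose and none fell, but 1 fell under each of those 3 scalings. Pde12, a phosphodiesterase that degrades oligoadenylates, went from 1.43 ± 0.10 TPM (SD, n = 3) to 4.11 ± 0.15 TPM (SD, n = 2), below the olfactory level in each library. Its log2 change of 1.07 lost its call with equal totals (0.41) and without the top 20 genes in the totals (0.35). Abce1, which encodes a ribosome recycling factor, was at 32.9 ± 3.99 and 27.5 ± 3.13 TPM and did not pass the test, with a log2 change of -0.25 (limma adjusted p = 0.30); it was named after its values were seen.

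The RIG-I-like receptor list had 12 rises and 1 fall among 17 tested genes, its median log2 change being 0.85. Rises and falls numbered 7 and 3 by either the upper quartile or equal totals, and 7 and 5 without the top 20 genes. Irf7, a transcription factor of interferon genes, went from 12.8, 26.6 and 23.8 TPM in spleen to 975 and 973 TPM in tumor (log2 change 5.53 ± 0.23, limma adjusted p = 1.7e-26). Dhx58, which encodes the third helicase of the family, LGP2, went from 6.01, 11.1 and 7.84 to 134 and 128 TPM (3.86 ± 0.22, limma adjusted p = 5.1e-21). Trim25, a ubiquitin ligase that acts on RIG-I, went from 4.98, 9.51 and 6.63 to 113 and 114 TPM (3.88 ± 0.22, limma adjusted p = 4.6e-21). These 3 genes changed by amounts within the range of the 9. Trim25 lay below the olfactory level in all 3 spleen libraries, Dhx58 in spleen replicates 1 and 3 and Irf7 in spleen replicate 1.

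Mavs, the adaptor both helicases need, stood at 3.38 ± 0.11 TPM in spleen against 4.54 ± 0.42 TPM in tumor and did not pass the test (0.34 ± 0.21, limma adjusted p = 0.16). Its direction turned on the upper quartile (-0.21) and by equal totals (-0.40). It was called lower without the top 20 genes (-0.46, limma adjusted p = 0.025) and higher when scaled on T cell identity genes (2.06). In every library it was under the olfactory level. Irf3, the transcription factor that MAVS signalling activates, was the 1 gene of the list called lower: it had 41.8 ± 8.27 TPM in spleen and 28.6 ± 2.80 TPM in tumor (a difference of -0.52 ± 0.21 on the log2 scale, limma adjusted p = 0.033). That call was lost at a threshold of 0.01 and on leaving out spleen replicate 2 (log2 change -0.37) or 3 (-0.56) or tumor replicate 2 (-0.42) or 3 (-0.61), and the direction turned when scaled on T cell identity genes (1.56).

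In the PKR list, 8 of 13 genes rose and none fell, with a median of 0.58. The rises and falls were 4 and 3 on the upper quartile, 4 and 4 by equal totals, and 4 and 6 without the top 20 genes. Ppp1r15a, a stress-induced subunit of the phosphatase that removes the PKR mark from eIF2 alpha, went from 7.00, 3.49 and 7.88 TPM to 107 and 104 TPM (log2 change 3.96 ± 0.23, limma adjusted p = 9.4e-21). Ppp1r15a lay below the olfactory level in each spleen library. Ppp1r15b, its constitutive counterpart, went from 15.9 ± 2.94 to 60.3 ± 5.43 TPM. Adar, the RNA-editing enzyme that keeps cellular RNA from activating MDA5 and PKR, went from 29.3 ± 7.56 to 89.3 ± 2.58 TPM (1.61 ± 0.22, limma adjusted p = 1.1e-08). Prkra, whose product activates PKR, went from 1.93 ± 0.21 to 6.90 ± 0.38 TPM, within background. Eif2s1, which encodes the PKR substrate eIF2 alpha, went from 21.9 ± 1.06 to 43.4 ± 0.06 TPM, and equal totals (0.05) or the upper quartile (0.28) ended its call.

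Of the 6 tested genes of the interferon receptor and ISGF3 list, 5 rose and none fell, with a median of 1.90. By the upper quartile or equal totals 4 rose and 1 fell, and without the top 20 genes 4 rose and 2 fell. Stat2 went from 8.91, 12.9 and 11.8 TPM to 142 and 153 TPM (log2 change 3.62 ± 0.21, limma adjusted p = 1.5e-20). Stat2 lay below the olfactory level in spleen replicates 1 and 3. Irf9 went from 31.3 ± 8.33 to 99.7 ± 4.20 TPM (1.68 ± 0.22, limma adjusted p = 4.7e-09). The receptor genes Ifnar1 and Ifnar2 went from 32.7 ± 7.84 to 144 ± 5.82 TPM and from 15.2 ± 2.44 to 103 ± 7.25 TPM. The interferon genes of the list, Ifnb1, Ifna2 and Ifna4, were near 0 and were not tested. Ifnb1 was at 0.06 to 0.49 TPM in spleen and at 1.52 and 0.66 TPM in tumor. Ifna2 and Ifna4 had at most 1.38 TPM in any library. Other interferon genes were outside the list.

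**Figure D5:**
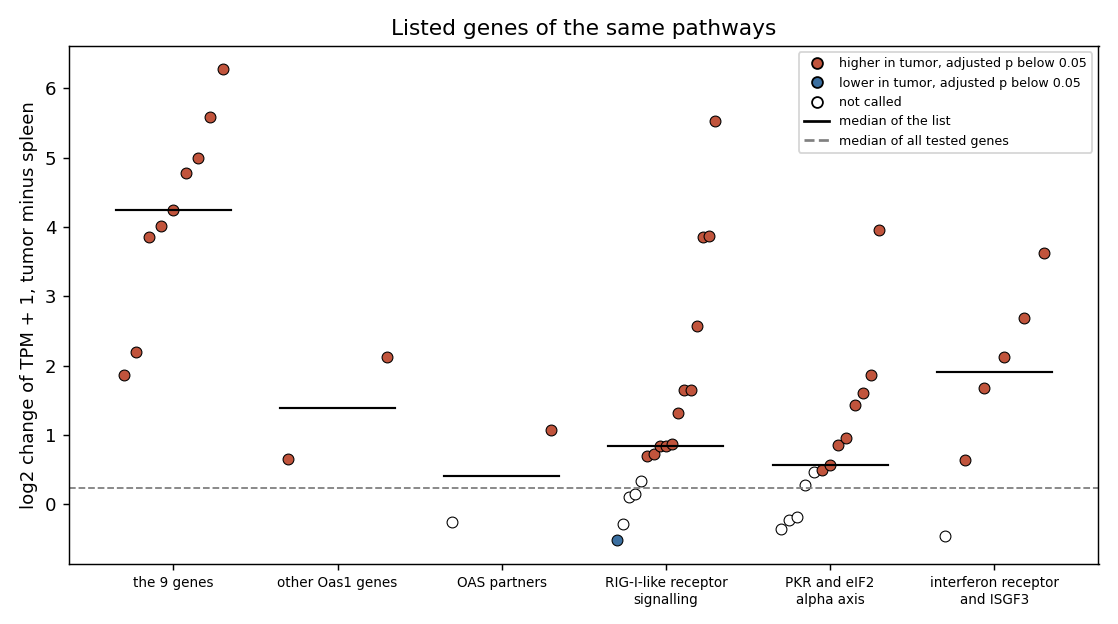
Log2 change of TPM + 1 (tumor minus spleen) of each tested gene in the 9 described here, the other Oas1 genes and the 4 pathway lists. Red points were called higher, blue lower and white neither at a limma adjusted p below 0.05, black lines are list medians and the dashed line is the median of all tested genes, 0.23. The median is 4.24 in the first column and 0.41 to 1.90 in the 4 pathway lists.

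The tested genes outside the lists with the pattern most like the mean of the 9 were Evi2a, Anxa5, Vim, Phf11b and Selenon, at Euclidean distances of 0.09, 0.10, 0.15, 0.15 and 0.20 in centred log2(TPM + 1) over the 5 libraries. The 9 genes themselves lay at 0.28 (Ifih1) to 2.56 (Ddx58) from that mean. Vim, the gene of the cytoskeletal protein vimentin, was at 58.0, 80.7 and 81.1 TPM in spleen and 1343 and 1378 TPM in tumor. Evi2a was at 6.07, 9.81 and 7.82 TPM in spleen and 162 and 167 TPM in tumor. With 2 groups of libraries, this likeness is mostly that of the size of the change.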

How the data were processed

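RNA was measured in 3 spleen and 2 tumor samples labelled CD4+ T cells, per the labels' protocols from total RNA with a stranded kit that depletes ribosomal RNA, read in pairs of 75 bp. The authors deposited 1 value per gene symbol and library, taken as TPM because the values are not whole and sum to less than the TPM total. Tools named in the submitters' processing notes are kallisto and DESeq2, with the build mm10 and no versions. TPM are shares of a total, so abundant transcripts lower all others.

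Tests ran on log2(TPM + 1) for genes averaging 1 TPM or more, with limma 3.58.1 (R 4.3.3), a single term for tissue and a mean-variance trend, two-sided, with calls at a Benjamini-Hochberg adjusted p below 0.05 over all tested genes. Residual degrees of freedom were 3 and prior ones 44.1. The test was checked on simulated data. The 9 genes and the gene lists were chosen with earlier results of these data known. Some genes are not reported here and are outside the counts over lists. Named genes were the 9, the other Oas1 genes, up to 3 rises and 3 falls per pathway list, binding partners of the 9, flanking genes and the 5 most alike. Coordinates and transcripts are from GENCODE M21 (GRCm38), promoters from RefSeq. Alternatives covered pseudocounts, filters, scalings, thresholds, the test, a replicate block and leaving out single libraries.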

Additional observations from a re-analysis of the deposited data

How the results depend on the processing

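Each of the 9 genes was called higher in tumor under each alternative run: pseudocounts of 0.1 and 10, filters, 5 scalings, a stricter threshold (0.01), testing against a 2-fold change, no mean-variance trend, the replicate block and single libraries left out. A lone tumor library was assumed to have the spread of the spleen group. Leaving out 1 library moved the log2 change of Oas1a between 4.85 and 5.10 and that of Ddx58 between 1.76 and 1.95. Counts over all genes moved more. Genes higher numbered 3492 with a mean of at least 10 TPM, 2697 with equal totals, 3372 on the upper quartile, 2617 with the top 20 genes left out, 12884 scaled on T cell identity genes and 2199 against a 2-fold change, and 4311 to 5894 on leaving out 1 library. Genes lower numbered 903, 6789, 5797, 7501, 119 and 274 in the same settings, 1552 at a threshold of 0.01, and 1225 (without tumor replicate 2) to 2609 on leaving out 1 library. Over the 4 pathway lists, 26 rises became 15 with equal totals, 16 on the upper quartile, 15 with the top 20 genes left out and 13 against a 2-fold change, and 22 to 28 on leaving out 1 library. The 1 fall became 2 with a mean of at least 10 TPM, 9 with equal totals, 8 on the upper quartile, 14 with the top 20 genes left out and 0 scaled on T cell identity genes, at a threshold of 0.01 or against a 2-fold change, and 0 to 2 on leaving out 1 library. The cause was not tested. Among the named genes called before or after the change of setting, direction turned with equal totals in Oas1c (-0.14), Ptpn11 (-0.32), Git2 (-0.70) and Sppl3 (-0.28). With the top 20 genes left out it turned in these 4 (-0.21, -0.39, -0.77 and -0.35), Mavs (-0.46) and Eif2s1 (-0.026). On the upper quartile it turned in Ptpn11 (-0.10), Git2 (-0.46) and Sppl3 (-0.058), and scaled on T cell identity genes in Irf3 (1.56) and Rph3a (1.22). Direction turned with no call in either fit in Mavs on the upper quartile (-0.21) and by equal totals (-0.40), and in Rph3a without tumor replicate 2 (0.05). The numbers 2 and 3 are used in both tissues, and the labels do not tie them to a shared mouse; deviations of same-numbered libraries correlated at 0.17 across genes, over 2 pairs, which does not settle a pairing. With the replicate block, 4877 genes were higher and 2013 lower, and 2 pathway genes fell. Replicate 1 occurs in spleen only. The block therefore gave the same log2 changes as leaving out spleen replicate 1, such as 4.85 for Oas1a and 1.76 for Ddx58. It is not a separate check of their size, and it left 1 residual degree of freedom. Depth is unknown, so precision at low TPM cannot be stated.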

Other observations

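Genes flanking the synthetase clusters on chromosome 5 had log2 changes of 1.00 (Ankrd13a) or less. The alternatives for these genes were chosen after seeing the data. Dtx1, a ubiquitin ligase gene 18406 bases before the Oas cluster, was at 24.3, 33.9 and 27.3 TPM in spleen and 1.75 and 1.93 TPM in tumor, a log2 change of -3.36 (limma with Benjamini-Hochberg adjustment, called lower under each alternative run). Rasal1, next to it, was at 5.11, 5.43 and 3.99 TPM in spleen and 0.27 and 0.18 TPM in tumor, within background. On the other side of that cluster, Rph3a was not called, at 1.52 to 2.50 TPM in spleen and 1.21 and 2.06 TPM in tumor. Ptpn11, 208881 bases away, was at 7.07, 10.1 and 7.82 TPM in spleen and 12.0 and 12.7 TPM in tumor. Beside the Oasl pair, Ankrd13a rose from 19.3, 28.4 and 21.6 TPM to 45.4 and 47.9 TPM, Git2 was at 37.0 to 48.3 TPM in spleen and 48.0 and 49.6 TPM in tumor without a call, and Sppl3 was at 7.99, 13.6 and 9.67 TPM in spleen and 13.2 and 18.8 TPM in tumor. Ankrd13a lost its call with equal totals (log2 change 0.10), without the top 20 genes in the totals (0.02) and against a 2-fold change. The calls of Ptpn11 and Sppl3 were lost by median ratios, with the replicate block and in other settings.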
